A study of Mus musculus with 3 samples.

Results

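Cytosolic ribosomal protein genes were taken from the arrays by gene name. A probe belonged to the set when it was no control and its name in the deposited files began with Rpl or Rps and a digit, was Rplp0, Rplp1 or Rplp2, or was Lamr1, the older name of Rpsa. The ribosomal protein S6 kinases and the mitochondrial ribosomal proteins were left out. The set held 132 probes of 80 gene names, among 41174 probes of 29273 names on the array.

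The ribosome is built from a small subunit, which reads the messenger RNA, and a large subunit, which joins amino acids and carries the acidic stalk that recruits elongation factors. Its proteins are made in nearly equal amounts and their messenger RNAs are among the most abundant of a growing cell. In vertebrates most of these transcripts begin with a C followed by a run of pyrimidines, the 5' terminal oligopyrimidine tract through which mTOR signalling controls their translation.

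RNA of EpH4-PR cells was hybridised to 3 Agilent whole mouse genome arrays. EpH4 is a mouse mammary epithelial cell line, and EpH4-PR cells carry a stable PR-A transgene, the shorter isoform of the progesterone receptor. The cells were selected as clones, grown in DMEM with 10% FBS to about 75% confluence and labelled with Cy5, and a Stratagene mouse standard RNA was labelled with Cy3 on every array, without a dye swap. EpH4-EV arrays were not analysed here, so each ratio is the level in EpH4-PR cells relative to the standard and no effect of PR was measured. Neither the number of clones nor whether the 3 RNAs came from separate cultures is given in the sources used here, so the p-values measure only the spread between these 3 arrays.

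On the 3 arrays 29603 to 30942 probes were well above background in Cy5. Of the epithelial marker probes (keratins, E-cadherin, claudins and Epcam), 10 of 11 passed the test above the reference RNA and 1, Krt19, below it. All but 1 of the 12 mesenchymal marker probes passed below it, with Vim at -6.51 ± 0.11 (SD, n = 3) on the log2 scale. Of 12 blood cell marker probes 1 passed above and 5 below it. Over all probes 25.7% passed above and 24.6% below it.

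The start sites of genes at both ends of the order described below, and of genes that have the pyrimidine tract, are shown first. Each window runs from 15 bases before the annotated start to 15 bases from it on, from RefSeq on GRCm38.p6, and capitals mark a C followed by at least 4 further pyrimidines that begins within 5 bases of the start.
Rpl22, chr4:152325711-152325740, plus strand: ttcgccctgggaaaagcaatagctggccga
Rpl22l1, chr3:28805493-28805522, plus strand: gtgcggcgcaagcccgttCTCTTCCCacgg
Rpl10, chrX:74270801-74270830, plus strand: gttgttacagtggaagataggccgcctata
Rpl39, chrX:37085208-37085237, minus strand: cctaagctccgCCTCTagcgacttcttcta
Rpl31, chr1:39367836-39367865, plus strand: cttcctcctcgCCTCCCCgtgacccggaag
Rps6, chr4:86857353-86857382, minus strand: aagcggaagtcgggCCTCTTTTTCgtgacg
Rplp2, chr7:141447636-141447665, plus strand: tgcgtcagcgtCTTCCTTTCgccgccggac
Rps27, chr3:90213634-90213663, minus strand: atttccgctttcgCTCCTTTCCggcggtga
Such a run was found in 39.4% of the 71 RefSeq promoters of the set, against 18.3% of 32851 promoters of the same length. The motif TATAA, read on the strand of the gene 20 to 40 bases before the start, was found in 4.23% of the set and in 3.31% of all promoters. Rpl22 has a second annotated start and neither of its windows holds the run. The 44 probes of 27 genes with the run had a median log2 ratio of -0.35, and the 55 probes of 33 genes without it had a median of -0.57. A match describes these letters at the annotated start and no more.

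The ribosomal protein probes were among the brightest on the arrays, and their ratios depended on how brightness was treated. Brightness is given as A, the mean log2 intensity of both channels after normalization. The median A of the set was 13.38, against 6.54 for all probes, and 65.2% of the set lay above the 99th percentile of all probes. The set supplied 29 of the 50 brightest probes and 47 of the 100 brightest. In the scanner intensities as deposited, the median of Cy5 over Cy3 in the set was 2.08, 2.01 and 2.05 on arrays 1, 2 and 3. The same ratio was 0.8, 0.81 and 0.868 over all probes and 3.0, 2.86 and 2.95 over the 504 other probes of A 12 or more. Before normalization the median of the set therefore lay above that of all probes on every array and below that of other bright probes. The groups were not matched: the set here includes 20 probes with A below 9. It also includes 10 whose Cy5 signal was at the scanner ceiling on all arrays.

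**Figure D1:**
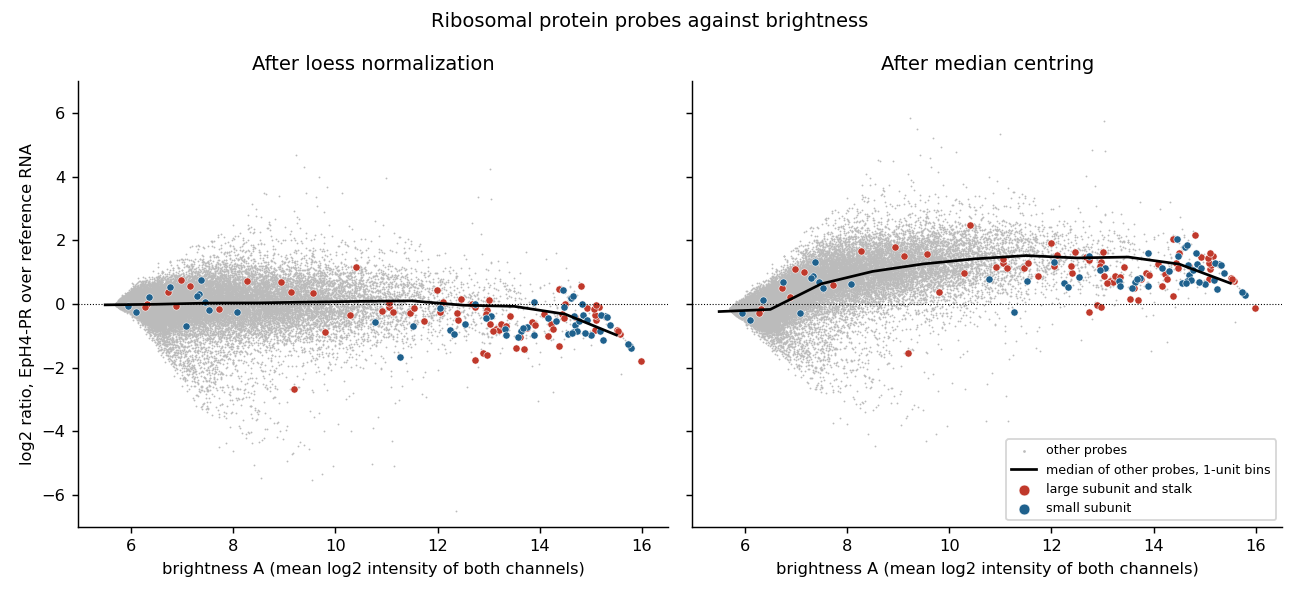
Log2 ratio (EpH4-PR to reference RNA) against brightness A for all probes (grey) and the 132 ribosomal protein probes (large subunit and stalk red, small subunit blue), after loess normalization on the left and after median centring on the right; the black line is the median of the other probes in bins of 1 unit of A. The bright end of the array, where most of the set lies, sits near or below 0 on the left and above 0 on the right.

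After loess normalization, which draws the ratio of each array toward 0 along brightness, the median log2 ratio of the set was -0.38, -0.40 and -0.42 on the 3 arrays, a mean of -0.40 ± 0.02 (SD, n = 3), while the median of all probes was 0.00, -0.01 and 0.00. The bright end was not brought to 0: the other probes had a median of -0.31 from A 14 to 15 and -0.98 from 15 to 16. By limma's moderated test with Benjamini-Hochberg adjustment, 90 of 132 probes were lower and 20 higher than the reference RNA, beside 24.6% lower and 25.7% higher over all 41174 probes. At a log2 ratio of at least 1 in size, 16 probes were lower and 1 was higher, beside 3.83% lower and 2.26% higher over all probes. This direction turned with the scaling: after median centring, which applies 1 shift to a whole array, 119 probes of the set were higher and 9 lower, beside 42.5% higher and 40.9% lower over all probes, and the median of the set was 0.91. With the log ratio of the scanner software 30 were higher and 69 lower, beside 23.6% and 19.9% over all probes. The share of higher calls in the set went from 18.2% to 30.3% with that ratio and to 93.0% with median centring. The level of the set as a whole against the reference RNA is therefore not settled by these arrays, and, as RNA was pooled over cells, fewer cells with a transcript and less of it per cell cannot be told apart.

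**Figure D2:**
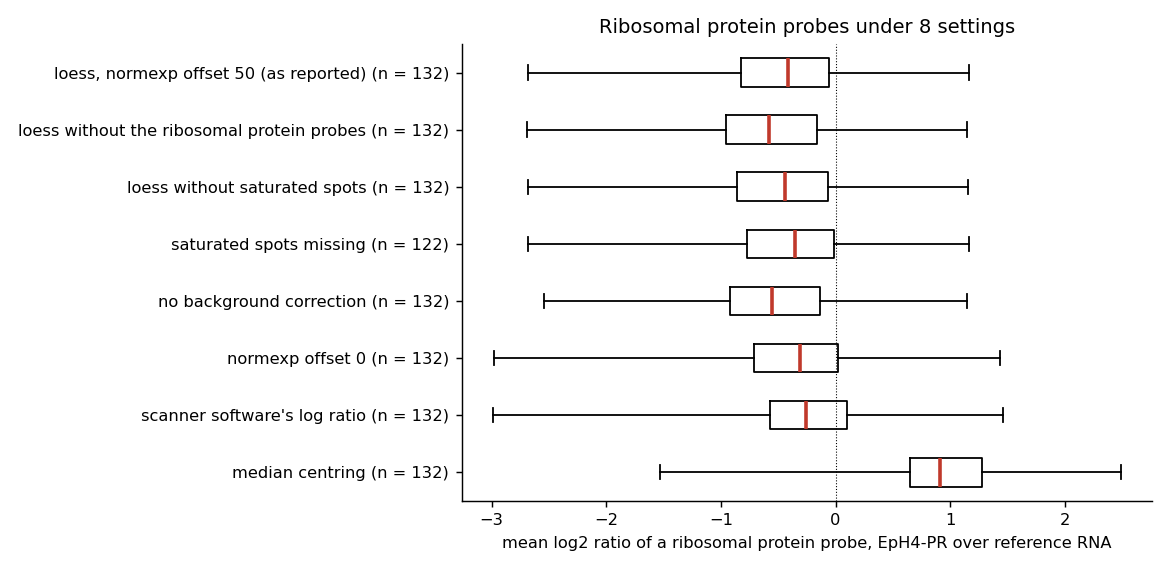
Mean log2 ratio of the ribosomal protein probes under 8 settings; boxes span the quartiles, whiskers the full range, the red line is the median and n the number of probes with a value. The median is -0.41 with the reported setting and 0.91 after median centring.

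Ratios of single probes varied little between arrays. The median SD of a probe over the 3 arrays was 0.05 in the set and 0.09 over all probes. Within the set it was 0.09 for probes with A below 9 and 0.04 for those of A 9 or more. The ratios of the set correlated between pairs of arrays at 0.984 to 0.991 (Pearson's r across 132 probes, which are not independent replicates), beside 0.923 to 0.952 over all probes. By gene name and after loess normalization, every probe passed below the reference RNA for 52 names and above it for 3, namely Rpl7, Rpl7l1 and Rpl31. Of the 80 names 41 have a single probe, and the like shares over all names of the array were not computed. The 52 include Rplp1, Rps12, Rps23 and Rpl41, whose only probe was saturated in Cy5 on all 3 arrays. For 8 names 1 probe or more passed in each direction, for 7 only part of the probes passed, and for 10 no probe passed.

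**Figure D3:**
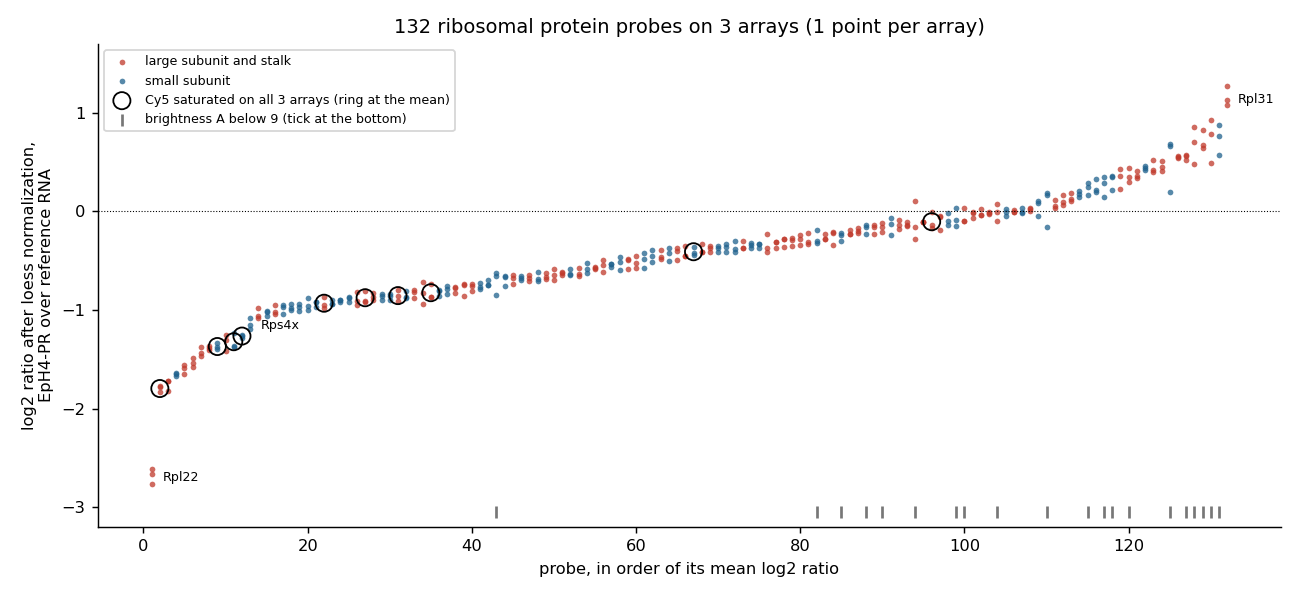
Log2 ratios of the 132 ribosomal protein probes after loess normalization, in order of the mean, with 1 point for each array (large subunit and stalk red, small subunit blue). The 3 points of a probe lie close together beside the range from -2.69 to 1.16, rings mark the 10 probes saturated in Cy5 on all arrays, and the ticks at the bottom mark the 20 probes with A below 9, which gather at the upper end.

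In the set, saturation fell on the EpH4-PR channel alone, while 1 probe outside the set was saturated in Cy3 on each array. The scanner ceiling of 65232 was reached in Cy5 by 15, 10 and 14 probes of the set on arrays 1, 2 and 3, of 24, 18 and 24 on the whole array, and by none of the set in Cy3. Of the 25 probes saturated in Cy5 on any array, 15 belonged to the set. The 10 saturated on all 3 arrays were those of Rpl27, Rplp1 and Rpl41, of the small subunit proteins Rps12 and Rps23, and 1 probe each of Rps18, Rps2, Rplp2, Rpl7a and Rpl13. Their measured ratios lay between -1.80 and -0.10 and 9 of them passed below the reference RNA, but a saturated Cy5 signal gives only a lower limit of the ratio, so these ratios bound nothing from above. Read as lower limits of Cy5 over Cy3, all 10 were under 1, so no fold is given for them. Without these 10 probes 81 probes were lower, 12 of them by at least 1 log2 unit, and none of the higher calls was lost.

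**Figure D4:**
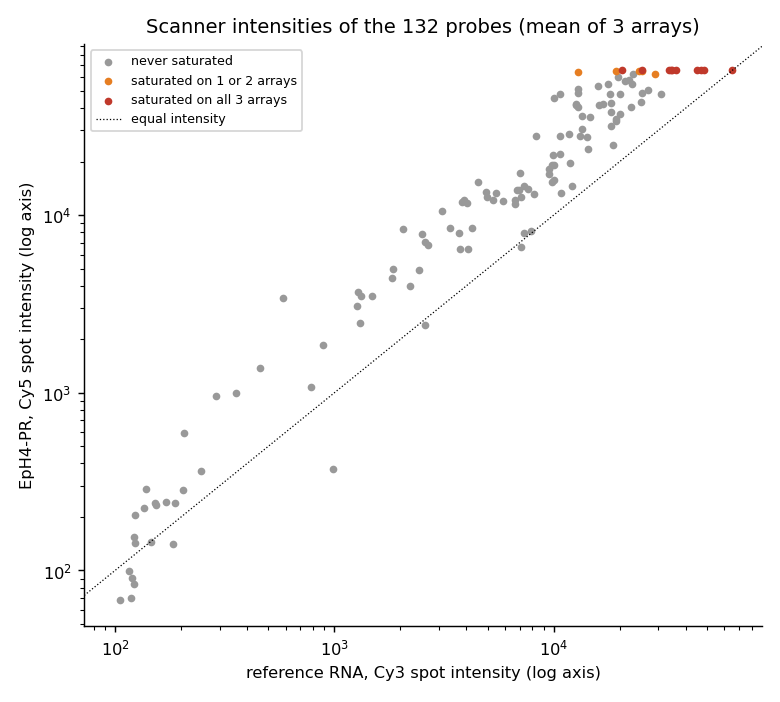
Scanner intensities of the 132 probes as deposited, mean of 3 arrays, with Cy3 (reference RNA) on the x axis and Cy5 (EpH4-PR) on the y axis, both on log axes. The 10 probes saturated in Cy5 on all arrays lie on the ceiling of 65232 whatever their Cy3 signal, and most of the other probes lie above the line of equal intensity.

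The ratio also moved with brightness inside the set. Across the 132 probes the log2 ratio and A had a Pearson's r of -0.417 and a Spearman's rho of -0.412 after loess normalization, and 0.278 and 0.149 after median centring, given as a description of probes that share arrays and normalization. Over the 112 probes with A of 9 or more the loess values were -0.135 and -0.196, both closer to 0 than with the 20 dimmer probes included. In the 3 bins of A that held at least 20 probes of the set, the median ratio was -0.76 from A 13 to 14, where the other probes had -0.10. It was -0.43 from 14 to 15 beside -0.31, and -0.75 from 15 to 16 beside -0.98 for the 12 other probes left there. All bins below A 13 were thin, with at most 18 probes of the set. In the brightest bin the median of the set thus lay above that of the other probes. That bin holds the 10 probes of the set saturated in Cy5 on all arrays. The other probes there include a saturated one named Arbp, which matches Rplp0. The part of saturation in these 2 medians was not tested.

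Because both scalings treat probes of like brightness alike, a ratio was also read against the other probes within 0.25 units of A. For Rpl22, Rpl31 and the other genes given below, such a difference moved by at most 0.01 log2 units between the 2 scalings.

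Among the large subunit proteins 47 of 72 probes were lower and 11 higher after loess normalization, beside 24.6% and 25.7% over all probes. Their median was -0.33. Rpl22, an RNA-binding protein of the large subunit that ribosomes can do without, had the lowest ratio of the set, and its 2 probes were the lowest of those never saturated. Its probe A_52_P391718 gave -2.77, -2.62 and -2.67 on the 3 arrays, averaging -2.69 ± 0.08 (SD, n = 3) with an adjusted p of 1.5e-05. Its brighter probe A_51_P387878 gave -1.72, -1.72 and -1.82, a mean of -1.75 ± 0.06 (SD, n = 3). Both probes were below 0 in every setting, at -1.54 and -0.26 after median centring. The scanner intensities of the brighter probe were 6917, 6183 and 6660 in Cy5 and 7161, 6671 and 7572 in Cy3. Its signal was thus slightly lower in EpH4-PR RNA on each array, whereas the other probes of A 12 or more had a median Cy5 signal well above their Cy3 signal. Of 135 other probes within 0.25 of its A of 12.74 only 2 had a lower ratio, and it lay below their median by -1.64 log2 units after either scaling. The dimmer probe lay below the 1415 probes of like brightness by -2.75.

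Rpl22l1, the paralog that can take the place of Rpl22 in the ribosome, stood at the other end. It carries the name 3110001N18Rik on the array, so it is no member by name, and it was matched by its RefSeq accession. Its probe had the brightness of the Rpl22 probe to within 0.01 units of A, and its log2 ratios were 1.06, 1.02 and 0.82, averaging 0.97 ± 0.13 (SD, n = 3) with an adjusted p of 0.000225. Its scanner intensities were 19153, 15707 and 15923 in Cy5 and 2909, 2571 and 2932 in Cy3. The difference of the 2 probes, Rpl22 minus Rpl22l1, was -2.78, -2.74 and -2.64 on the 3 arrays, a mean of -2.72 ± 0.07 (SD, n = 3), and lay between -2.76 and -2.69 under all 15 alternatives. Alternatives that changed only the test, or left out saturated or dim spots, could not move it. Both scalings shift probes of like brightness alike, so this narrow range was largely fixed in advance. No test of the difference was run, since the pair is described after its values were seen. For the dimmer Rpl22 probe, at A 9.19, the difference from Rpl22l1 was -3.65 ± 0.17 (SD, n = 3). It lay between -4.08 and -3.44 under the 15 alternatives, a wider range at unlike brightness. All 10 probes of the set as bright as Rpl22l1 had lower ratios than it did.

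Rpl31, a protein of the tunnel exit, had the only probe of the set at 1 log2 unit or more. It gave 1.13, 1.08 and 1.27, averaging 1.16 ± 0.10 (SD, n = 3) with an adjusted p of 8.6e-05, and the second probe gave 0.49, 0.70 and 0.85. Both were above 0 in every setting, and the first was 1.06 above the median of 703 probes of like brightness. The 3 probes of Rpl7 had 0.45, 0.46 and 0.55, although the brightest, at A 14.81, was saturated in Cy5 on 2 arrays, and its ratio there is a lower limit. Each was higher than every probe of the set of like brightness. Its relative Rpl7l1, a nucleolar protein of ribosome assembly, had 0.37 and 0.72, at a lower A of 9.12 and 8.28.

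Among probes above background and never saturated, the 6 names with the lowest ratios were Rpl22, Rps15, Rpl10, Rpl36a, Rpl39 and Rps4x, and the last 4 share a chromosome. Rpl10, which completes the large subunit before it enters translation, had -1.48, -1.58 and -1.54 on its matched probe and a mean of -1.60 ± 0.04 (SD, n = 3) on the other, whose accession was not matched. Rpl36a had means of -1.43, -1.39 and -1.04 on 3 probes, and Rpl39, a small protein of the exit tunnel, had -1.32 ± 0.08 (SD, n = 3). Rps4x of the small subunit had -1.08, -1.20 and -1.15, a mean of -1.14 ± 0.06 (SD, n = 3). These 4 genes lie on the X chromosome by RefSeq, they are the only genes of the set matched there, and all their 6 matched probes were among the 14 lowest of the 132. Grouping by chromosome was chosen after these values were seen, so it carries no test. The median of the 6 probes minus that of the 76 other probes of the set at least as bright as the dimmest of them was -0.71, -0.74 and -0.83 on the 3 arrays, a mean of -0.76 ± 0.06 (SD, n = 3), and stayed between -0.84 and -0.73 under 15 alternatives. These 76 include the Rpl10 probe that was not matched, and without it, a choice made after seeing the data, the difference was -0.74, -0.76 and -0.84, a mean of -0.78 ± 0.05 (SD, n = 3), and lay between -0.84 and -0.75. The direction of Rpl36a, Rpl39 and Rps4x against 0 depended on the scaling: after median centring they were above 0, at 0.12 to 0.50. Both Rpl10 probes stayed below 0 in every setting, at -0.03 and -0.09 after median centring. Rpl36al, the copy of Rpl36a on chromosome 12, had 0.00, 0.03 and 0.02, so each Rpl36a probe was lower than it by -1.45 to -1.06 on average. Over all settings these differences ranged from -1.56 to -0.83. They set A of 13.55 to 13.69 against 11.06, and the part of brightness in them was not tested.

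Outside the set the X chromosome was also low at high brightness. Among probes well above background in both channels, the 165 on the X chromosome with A of 8 or more had a median of -0.35 and the 6185 on other chromosomes one of 0.08, and at A of 10 or more 45 had -0.50 beside 0.08. Without a limit on brightness, X had the lowest median of 20 chromosomes, at -0.12 over 458 probes. What part of the ratios of the 4 genes goes with this was not tested.

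**Figure D5:**
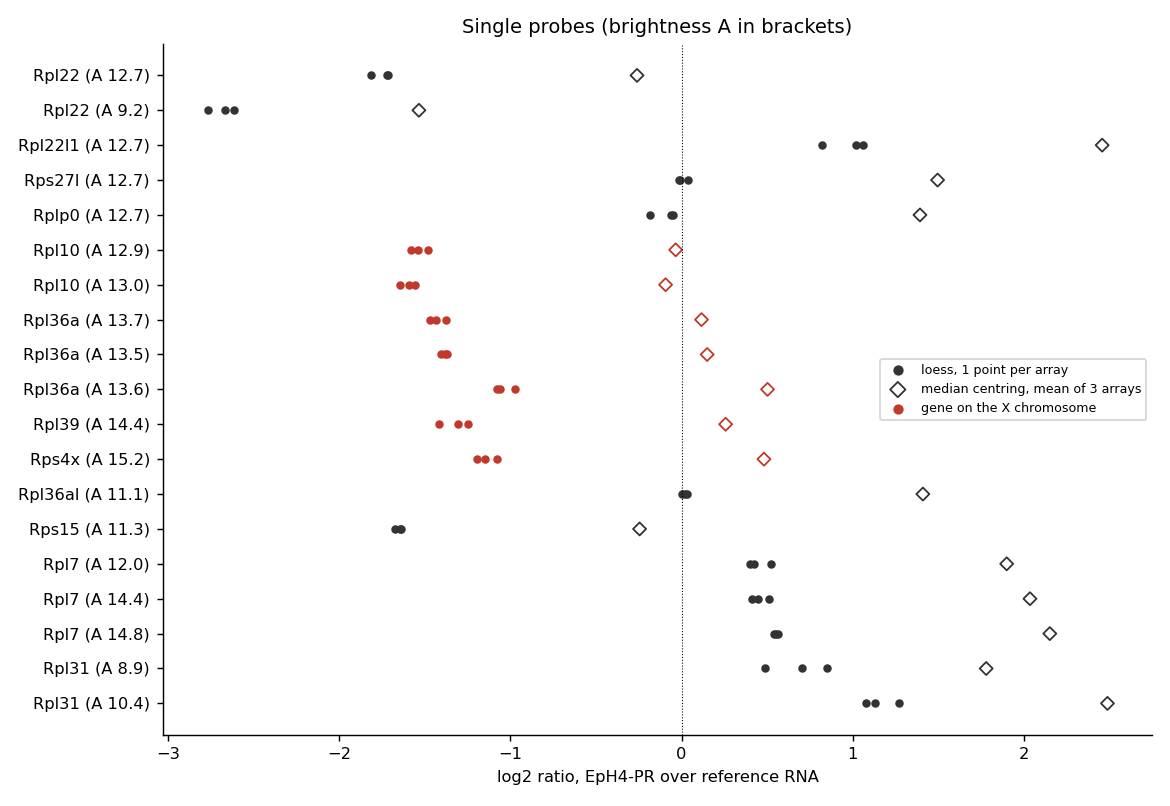
Log2 ratios of single probes, with filled points for the 3 arrays after loess normalization and open diamonds for the mean after median centring; genes on the X chromosome are red and the brightness A of each probe stands in brackets. Rpl22 and Rpl22l1 lie on opposite sides of Rps27l and Rplp0 at the same brightness, and the shift between the 2 scalings is alike for probes of like brightness.

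Among the small subunit proteins 41 of 56 probes were lower and 8 higher, beside 24.6% and 25.7% over all probes. Their median was -0.53. The large subunit, stalk included, was above the small subunit by 0.16, 0.17 and 0.24 on the 3 arrays, a mean of 0.19 ± 0.04 (SD, n = 3), and median centring left the sign in place at 0.32. The median A was 13.11 over the large and 13.89 over the small subunit, and the part of brightness in the difference was not tested. Rps15, which binds near the decoding site, was the lowest of the small subunit, at -1.65, -1.67 and -1.64, averaging -1.65 ± 0.02 (SD, n = 3) with an adjusted p of 2.2e-05. It was 1 of 10 probes of the set below 0 in every setting, at -0.24 after median centring, and 12 of 386 other probes of like brightness were lower. Rps27, a zinc finger protein of the small subunit, had -0.97 ± 0.03 (SD, n = 3), and its paralog Rps27l, a p53 target, had 0.00 ± 0.03 (SD, n = 3, adjusted p = 0.94). Rps6, the substrate of the S6 kinases, was above the reference RNA at 0.25 ± 0.07 (SD, n = 3) on its bright probe. The dim Rps6 probe was not well above background in Cy5 on any array, and its measured ratio was -0.27 ± 0.07 (SD, n = 3, adjusted p = 0.0086). Its Cy3 signal was 121, 127 and 105, where the negative control spots had medians of 119, 121 and 92. In Cy5 it had 73, 74 and 63 beside 73, 74 and 57. This ratio was thus read near the floor of both channels, and no fold is given for it. A dim Rps2 probe was not well above background in Cy5 on any array and was so in Cy3 on 1 array only, so no fold is given for it.

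The stalk proteins could be read only in part. Rplp1 had the lowest ratio of these, -1.83, -1.77 and -1.78, but its Cy5 signal was at the ceiling and its Cy3 signal, from 64486 to 65029, was close to it. The brighter probe of Rplp2 was saturated too, at -0.85, and its dim probe had 0.36 ± 0.07 (SD, n = 3). The third stalk protein, Rplp0, had -0.10 ± 0.08 (SD, n = 3, adjusted p = 0.16) on the probe of that name. Of 2 further probes named Arbp, which match Rplp0 by accession, the unsaturated one had 0.07 and the saturated one -1.38. The unsaturated bright probes of Rplp0 thus did not pass the test after loess normalization, and after median centring the first of them was at 1.39.

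Rpl3l and Rpl39l were also read at a brightness far from that of their relatives. Rpl3l, the copy of Rpl3 of heart and skeletal muscle, was dim (A 6.27) and had 0.11, -0.16 and -0.28, so its direction was not shared by the arrays. Rpl3 had -0.33 ± 0.04 (SD, n = 3). The 2 probes named 4930517K11Rik, which match Rpl39l, a paralog known from testis, had -4.38 ± 0.17 and -0.47 ± 0.08 (SD, n = 3), and the second was well above background in Cy5 on 1 array only. Rpl39 was above the first probe by 3.11, 2.91 and 3.13, a mean of 3.05 ± 0.12 (SD, n = 3), and by 2.51 to 5.44 under 15 alternatives. Its difference from the second probe changed sign with median centring, from -0.86 to 0.91. Both comparisons set A of 14.39 against 7.87 and 6.29, and the part of brightness in them was not tested.

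Genes often used as references for quantitative PCR did not share 1 ratio. Over 11 probes of 6 such genes, 6 were lower and 1 higher, beside 24.6% and 25.7% over all probes. All 11 were higher after median centring, beside 42.5% over all probes. With the scanner software's ratio 3 were higher and 4 lower, beside 23.6% and 19.9% over all probes. Rpl19 had -0.01 ± 0.01 and 0.07 ± 0.04 (SD, n = 3) on its 2 probes, neither past the test, Rpl32 had -0.34 ± 0.10, Rpl13a had -0.83 ± 0.04 and Rps29 had -0.92 ± 0.02 (SD, n = 3). Rps18 had 3 probes that disagreed: the saturated one at -1.37, one at -0.34 with A of 15.2, and a dim one, with an accession that was not matched, at 0.69, 0.67 and 0.20.

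The ribosomal proteins that bind Mdm2 and so can stabilise p53 were low to near 0 after loess normalization and high after median centring, with 10 of 12 probes lower in the first and 12 of 12 higher in the second. Over all probes 24.6% were lower in the first and 42.5% higher in the second. The bright probes of Rpl5 and Rpl11, which act with 5S ribosomal RNA, had -0.45 ± 0.05 and -0.13 ± 0.04 (SD, n = 3), and that of Rpl11 did not pass the test (adjusted p = 0.058). Rpl23 had -0.35 and -0.83, Rpl26 had -0.31, Rps3 had -0.34 and -0.69, Rps7 had -0.86 and -0.18, and Rps14, saturated on 2 arrays, had -0.37.

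Probes of 1 gene disagreed mainly where 1 of them was dim. Of 39 names with more than 1 probe, 5 had probes at least 1 log2 unit apart, namely Rps18, Rpl13, Rpl9, Rps24 and Rplp2, and all 5 had a probe with A below 9 beside a brighter one. The median range was 0.65 over the 18 names with such a pair and 0.14 over the other 21. The dim probes had the higher ratio for 12 of the 18 names. In Rpl13 the dim probe had 0.78, 0.93 and 0.50 and the brighter unsaturated one -0.57, -0.58 and -0.57. In Rpl9 the pair had 0.55 and -0.78, and in Rps24 the bright probe had -0.94 and the dim ones -0.25 and 0.31. Lamr1 was the 1 member not named for a ribosomal protein, and it had 0.74 on its dim and -0.14 on its bright probe. Of the 20 probes with A below 9, 11 carried accessions that did not match RefSeq, beside 8 of the 112 others. By the ranking rule 4 of the 6 highest names (Lamr1, Rpl13, Rpl9 and Rps18) rest on dim probes at odds with brighter probes of the same gene.

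Fau, which encodes Rps30 fused to a ubiquitin-like protein and so is no member by name, had log2 ratios of -0.89, -0.90 and -0.76, a mean of -0.85 ± 0.08 (SD, n = 3), after loess normalization, and a mean of 0.76 after median centring.

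Factors that make or drive the ribosome had a different balance of calls after loess normalization, at lower brightness. The shares over all probes were 25.7% higher and 24.6% lower. Of 67 probes of ribosome assembly and nucleolar factors 52 were higher and 6 lower, with a median of 0.62 and a median A of 8.94, led by Nolc1 at 2.13 ± 0.10 and Rrs1 at 1.94 ± 0.05 (SD, n = 3), and with Sbds lowest at -1.18. Of 31 probes of RNA polymerase I and its factors 15 were higher and 7 lower (median 0.19), and of 17 probes of the S6 kinases 8 were higher and 1 lower (median 0.16). Translation initiation factors had 37 of 68 probes higher and 16 lower (median 0.18), from Eif3s8 (Eif3c) at 2.03 down to Eif3s6 (Eif3e) at -1.41. Elongation factors and their partners had 7 of 22 each way (31.8%, not far from the shares over all probes, median -0.10), with Tpt1 at -1.67. The 118 probes of mitochondrial ribosomal proteins, of 74 names, had 62 higher and 24 lower (median 0.20). The lower calls of RNA polymerase I (22.6%), initiation factors (23.5%) and mitochondrial ribosomal proteins (20.3%) were near the share over all probes. All of these lists kept more higher than lower calls after median centring, and the elongation factors gained them there, with 17 higher and 4 lower. With that scaling 42.5% were higher and 40.9% lower over all probes. After median centring their medians were 1.69 for assembly factors, 1.47 for initiation factors, 1.24 for mitochondrial ribosomal proteins, 1.01 for elongation factors, 0.92 for RNA polymerase I and 0.43 for the S6 kinases, beside 0.91 for the set. The place of the set among the lists thus depended on the scaling, and the part of brightness was not tested.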

How the data were processed

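Arrays of EpH4-PR RNA (Cy5) against a common reference RNA (Cy3) were analysed. The authors deposited the output of Agilent Feature Extraction (version 8.1.1.1 per the file headers), with a mean and median intensity, a local background intensity, flags for saturation, outliers and signal over background, and a log10 ratio for each spot. The deposited files count 43790 spots on each array. Labelling and scanning were done by a service provider, and the design of the array gave the gene names. The authors also deposited a table of their own comparison (fold changes and p-values between sides it does not name), which was not used here.

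Mean intensities were background corrected with normexp (offset 50) and normalized by loess within each array, with control and outlier spots at weight 0 (limma 3.58.1, R 4.3.3). Spots of a probe were averaged, and the log2 ratio was tested against 0 with lmFit and eBayes, with Benjamini-Hochberg adjustment over 41174 probes and a threshold of 0.05. No filter on low values was applied, so all 132 probes of the set were tested. The fit was tested on simulated data with as many probes raised as lowered and without a dye trend or saturation. That simulation therefore says nothing on the direction of a bright and partly saturated set. The reference RNA is no group of samples and its own spread was not measured; the number of arrays limits the precision. Bounds for saturated probes came from separate channels after loess and Aquantile and are open to dye bias, since no dyes were swapped.

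Gene names follow the files. Of the 132 probes 113 matched a RefSeq symbol by accession (GRCm38.p6), 4 of them under another symbol, and 9 further probes matched ribosomal protein genes but carry other names in the files. The members and gene lists were chosen with earlier results of these data known. The genes named were the 6 highest and 6 lowest among probes above background and never saturated, the stalk proteins, paralogs, common reference genes and Mdm2 binders, the genes whose probes differ by at least 1 log2 unit, and those saturated on all arrays. Alternatives changed the background correction, normalization, weights, spot filters, test and arrays used, 1 at a time. A change of the test, or of the filters for saturation and background, leaves the mean of an unsaturated probe well above background as it was. Promoter sequences came from RefSeq. Some genes of the list of ribosomal proteins with other names are not reported here.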

Additional observations from a re-analysis of the deposited data

How the results depend on the processing

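Median centring in place of loess turned the median of the set from -0.41 to 0.91 and gave 119 probes higher and 9 lower, 60 of them by at least 1 log2 unit and 1 below -1, with a difference of 0.32 between large and small subunit. The median of the set was -0.44 with saturated spots left out of the loess curve, -0.58 with the ribosomal protein probes left out of it, -0.56 without background correction, -0.31 with normexp at offset 0, -0.36 with saturated spots missing, -0.26 with the log ratio of the scanner software and -0.45 with 1 value per gene. At least 1 log2 unit lower were 31 probes with the set left out of the loess curve and 30 without background correction. At least 1 log2 unit higher were 4 at offset 0 and 5 with the scanner software's ratio, which put the large subunit above the small by 0.14. The t-test after Benjamini-Hochberg adjustment called 10 probes higher and 85 lower, beside 5523 and 5722 of 41174 over all probes. For the counts at 1 log2 unit in this paragraph, the like counts over all probes are not given. Leaving out each array in turn gave 15 to 20 probes higher and 83 to 88 lower, beside 7238 to 11137 higher and 7307 to 10683 lower over all probes. It also gave 15 to 17 at least 1 log2 unit lower, 1 at least 1 log2 unit higher, medians of -0.43 to -0.39 and subunit differences of 0.19 to 0.22.

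Probes named in the text that changed sign under median centring were Rpl36a (0.12, 0.15 and 0.50), Rpl39 (0.26), Arbp (0.27), Rps18 (0.28 and 1.28), Rps12 (0.32), Rps23 (0.38), Rps4x (0.48), Rps7 (0.50 and 0.76), Rpl11 (0.59 and 1.48), Rps24 (0.63 and 0.65), Rps27 (0.64), Rps29 (0.67), Rpl13a (0.69), Rpl13 (0.71 and 0.98), Rps3 (0.73 and 1.26), Rpl41 (0.76), Rplp2 (0.78), Rpl23 (0.79 and 0.97), Rpl9 (0.80), Rpl7a (0.81), Rpl5 (1.14), Rps2 (1.22), Rpl3 (1.24), Rps14 (1.26), Rpl32 (1.28), Rpl26 (1.28), the bright Lamr1 probe (1.31), Rplp0 (1.39), Rpl27 (1.52), Rpl19 (1.57), Fau (0.76), Sbds (0.071) and Eif3s6 (0.041). With the scanner software's ratio Rpl27 (0.28), Rps3 (0.0054), Rps14 (0.030), Rpl11 (0.23), Rpl19 (0.29), Rps18 (0.047), Rpl32 (0.036), Rplp0 (0.014) and Rpl36al (-0.0053) changed sign. Of 1124 values of 71 named probes under the alternatives, 1021 kept their direction and their side of the threshold or were called in neither setting, 36 lost the call and 19 gained it. Over all 132 probes, 10 were below 0 and 22 above 0 in every setting, and the like shares over all probes of the array are not given. The 10 include the saturated Rplp1 probe and the dim Rps2 and Rps6 probes not well above background in Cy5. The 22 include dim probes, among them those of Rps18, Rpl13, Rpl9 and Lamr1. A constant sign thus does not show that a probe was well measured. The cause of these changes was not tested. Saturation in Cy5 and the low signal of dim probes limit the values they touch, and without a dye swap a dye effect and the level in EpH4-PR RNA cannot be told apart. No paired analysis was possible because the arrays form 1 group.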
